A study of Mus musculus with 483 samples.

Results

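Hes1, Hey1, Hey2, Heyl, Nrarp and Dtx4 are 6 genes listed as direct transcriptional targets of Notch, and they were read gene by gene out of the 46078 genes in a table of read counts for single mouse cells. The rule names them and uses no measured value, but the set was chosen with earlier results of these data known. The table holds 483 cells sorted as CD31+kit+CD45- from the AGM, the embryonic region of the aorta, gonads and mesonephros, of which 49.5% are labelled Ctrl and 50.5% aDll4-treated. The labels name no strain, embryonic stage, animal or culture, and they do not say what aDll4 is. Each treatment was therefore taken as 1 sample, no test between treatments was made, and every interval below covers counting error only. The submitters assigned each cell to 1 of 7 expression clusters, built on these same cells by their ICGS clustering, so cluster differences are given as description.

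In Notch signalling, a ligand such as Dll4 on a neighbouring cell releases the intracellular part of a Notch receptor, which joins the DNA-binding protein Rbpj and switches on target genes. Hes1, Hey1, Hey2 and Heyl encode basic helix-loop-helix repressors. Nrarp encodes a small ankyrin-repeat protein that limits Notch output as a feedback inhibitor, and Dtx4 encodes a Deltex-type ubiquitin ligase. In embryonic arteries, where blood stem cells arise from the aortic wall, Dll4 is the principal endothelial ligand and Hey1 and Hey2 are known for their role in arterial identity.

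A cell had between 123097 and 2870618 reads assigned to genes, with medians of 900286 in Ctrl and 869802 in treated cells. Library numbers in the sample titles fall into 2 blocks, below 20000 (354 cells, near evenly Ctrl and treated) and above 22000 (63 Ctrl and 66 treated cells), and into 6 runs of 96 consecutive numbers, 4 in block 1 and 2 in block 2. The labels do not say what the numbers mark. Block 2 cells had fewer genes detected (median 6802 in Ctrl and 7038 in treated cells, against 7591 and 7835.5 in block 1). The cells are labelled hematopoietic stem cells, but 8 endothelial marker genes summed to 4369 to 6040 CPM (reads of the gene scaled to a library total of 1000000 gene-assigned reads) in clusters 1 to 3, which hold 395 of the 483 cells. Hematopoietic markers led in clusters 6 and 7 (1331 and 1802 CPM, 53 cells), and mesenchymal markers were at 1046 and 8057 CPM in clusters 4 and 5 (22 and 13 cells), where the endothelial sum was 81.6 and 228.6 CPM.

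Promoter sequence was at hand for 2 of the 6 genes only, Hey2 and Nrarp, in RefSeq's GRCm38.p6 annotation, and both are shown for that reason. Nrarp was lower in treated cells in every run, while Hey2, like Hey1, Heyl and Dtx4, was not. Each line gives 250 bases before the annotated start and the 10 that follow, on the strand of the gene. In Hey2 (chr10:30842774-30843033, minus strand) the capitals mark TGGGAA, the core of the Rbpj motif, on either strand. In Nrarp (chr2:25180508-25180767, plus strand) they mark CACGTG, an E-box of the kind that Hey proteins bind.
Hey2: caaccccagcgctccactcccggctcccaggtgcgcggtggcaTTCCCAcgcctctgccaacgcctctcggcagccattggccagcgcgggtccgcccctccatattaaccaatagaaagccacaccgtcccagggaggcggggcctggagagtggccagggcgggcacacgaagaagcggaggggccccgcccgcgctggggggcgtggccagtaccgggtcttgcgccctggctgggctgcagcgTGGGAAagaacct
Nrarp: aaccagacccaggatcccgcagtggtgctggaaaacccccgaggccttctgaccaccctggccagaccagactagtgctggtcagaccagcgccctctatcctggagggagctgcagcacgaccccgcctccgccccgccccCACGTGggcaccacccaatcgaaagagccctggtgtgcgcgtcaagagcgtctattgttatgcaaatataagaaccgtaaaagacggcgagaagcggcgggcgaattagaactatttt
Over the full windows of 300 bases (250 before and 50 after the start), Hey2 held 2 matches to TGGGAA, beginning at -207 and -3 relative to the start, and both also matched the longer GTGGGAA. A window with 2 or more matches to GTGGGAA was found for 0.256% of 32817 annotated promoters, and 6.39% held at least 1. The Nrarp window had no match to TGGGAA, which 25.6% of windows hold, 1 match to CACGTG at -108, a motif in 7.15% of windows, and 2 matches to CACNAG, the N-box of Hes proteins, found in 42.5%. These are matches of letters on both strands and were not tied to binding.

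Summed over the cells of a treatment, with log2 ratios taken as treated over Ctrl of CPM plus 1, 3 of the 6 targets were lower in treated cells by at least 0.5 on the log2 scale: Hes1, Hey1 and Nrarp. Hey2 and Dtx4 differed by less, none was higher by 0.5, and Heyl was seen in too few cells (2.90%) to enter the comparison with other genes. Among 15204 genes with a read in at least 5% of cells, 6.48% were lower by 0.5 or more and 5.87% higher, and the median log2 ratio was 0.01. In the CPM range of Nrarp, genes of 5 to 20 CPM, 11.9% were as much lower, and in that of Hes1 and Hey1, 20 to 500 CPM, 3.27%. The same 3 targets were lower by 0.5 in block 1 alone, where 8.36% of genes were, and in clusters 1 to 3 alone (8.6% of genes). In block 2 alone only Hes1 and Nrarp were (15.2% of genes). Hes1 and Nrarp were also among the 5.22% of genes that were lower by 0.5 over all cells and below 0 in both blocks. Dll4 itself stood at 355.7 CPM among Ctrl and 177.2 CPM among treated cells (log2 ratio -1.001). Compared per kilobase of merged exons, Ctrl levels ran from Hey1 (62.6 CPM per kb) and Hes1 (44.6) to Nrarp (4.56), Dtx4 (1.74), Hey2 (0.939) and Heyl (0.513).

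**Figure D1:**
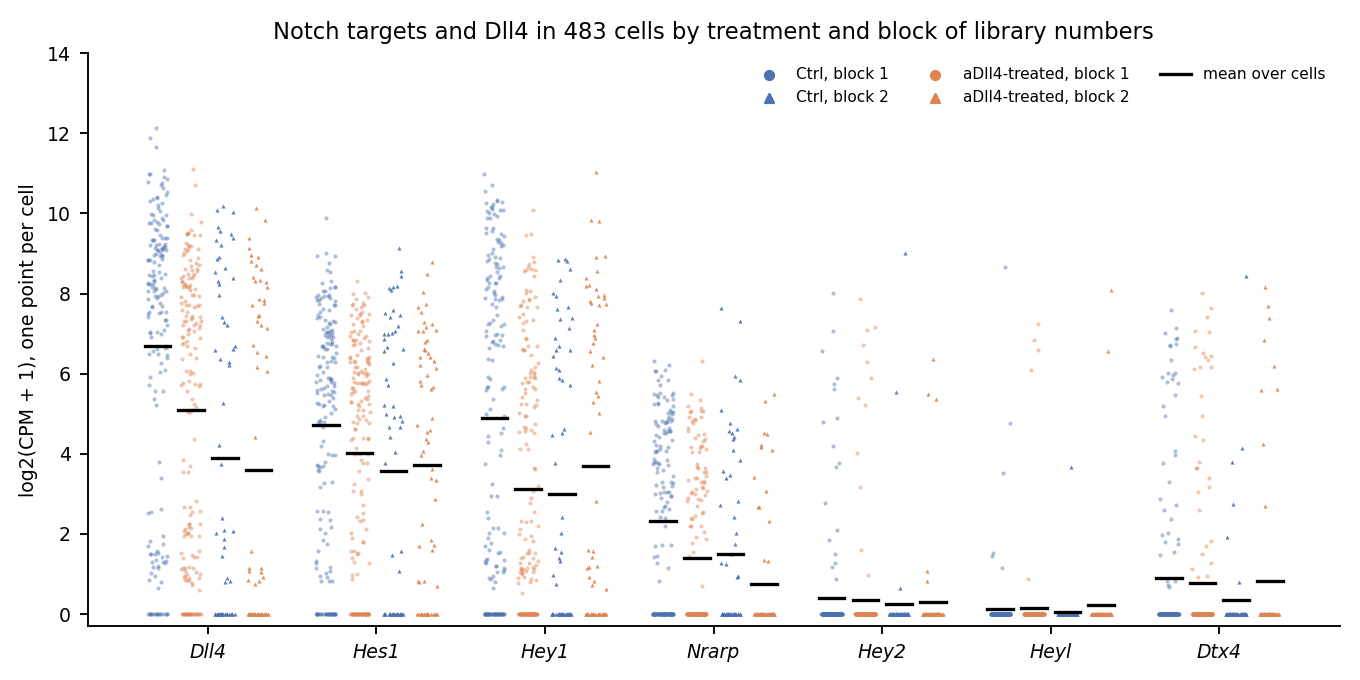
Level of Dll4 and the 6 targets in each of 483 cells, as log2(CPM + 1), by treatment (colour) and block of library numbers (circles, block 1; triangles, block 2), with black bars at the mean over cells. The Nrarp bars are lower in treated cells in both blocks (2.31 and 1.41 in block 1, 1.51 and 0.75 in block 2), whereas for Hey1 the treated bar is lower in block 1 (4.90 and 3.13) and higher in block 2 (3.00 and 3.71).

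Hes1 (mm10, chr16:30064384-30067796, plus strand) was measured in 367 of 483 cells. In Ctrl cells its level ran from 0 through a median of 37.6 to 946 CPM, and in treated cells from 0 through 26.3 to 441 CPM. The cells of the treatments overlapped over most of that range. The summed level of Hes1 was 90.8 CPM for Ctrl (95% Poisson interval 89.6 to 92.1) against 53.4 CPM for treated cells (52.4 to 54.3). The log2 ratio was -0.76, and Hes1 was lower in 6 of 6 runs, with ratios from -1.32 to -0.23, and in 5 of 6 by the mean of log2(CPM + 1). By summed CPM, 1.97% of measured genes were lower in all 6 runs. The share of cells with a Hes1 read differed little, at 76.99% of Ctrl against 75% of the treated (difference -1.99 points, Newcombe 95% interval -9.56 to 5.63), so the difference lay in the cells that had reads: their median was 71.5 CPM (Ctrl) against 53.4 CPM (treated), and the share of all cells at 100 CPM or more was 32.6% and 20.5%. The measures parted in block 2. There the summed level was still lower in treated cells (82.96 and 52.2 CPM), but a read was seen in 72.7% of treated against 58.7% of Ctrl cells, the mean of log2(CPM + 1) was higher by 0.16, and 5 cells carried 45.4% of the Ctrl reads.

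Hey1 (chr3:8663359-8667256, minus strand) was the most abundant target per kilobase by level summed over all cells of a treatment. Within blocks, Hes1 was above Hey1 in Ctrl cells of block 2 (40.7 and 26.3 CPM per kb) and treated cells of block 1 (26.5 and 19.1). Hes1 was below Hey1 in Ctrl cells of block 1 and treated cells of block 2. The difference of Hey1 between treatments depended on the block. Its median was 22.03 CPM over Ctrl and 2.03 CPM over treated cells, with ranges from 0 to 2035 and from 0 to 2106 CPM. The sums were 204.5 CPM for Ctrl and 94.2 CPM for treated cells (log2 ratio -1.11). In block 1 the levels were 257 and 62.4 CPM (log2 ratio -2.03), and in block 2 they were 85.8 and 157.1 CPM (0.86). All 4 runs of block 1 were lower in treated cells (-2.63, -1.997, -0.49 and -2.75) and both runs of block 2 were higher (1.25 and 0.35), although in run 3 the mean of log2(CPM + 1) was 0.08 higher in treated cells. Without the highest Hey1 cell of each treatment the block values were -2.01 and 0.59. In all, 2.27% of measured genes were lower by 0.5 or more in block 1 and higher by 0.5 or more in block 2. As for Hes1, detection differed less than level: a Hey1 read was found in 69.9% (Ctrl) and 65.98% (treated) of cells (difference -3.89 points, -12.1 to 4.42), 5 or more reads in 54.4% and 43.9% (difference -10.5 points, -19.2 to -1.63), and 100 CPM or more in 39.7% and 22.5%.

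Nrarp (chr2:25180758-25183339, plus strand) was the target that was lower in treated cells by summed level, share of cells and mean of log2(CPM + 1), over all cells and in each block. Its summed level was 11.8 CPM for Ctrl (11.3 to 12.2) against 5.85 CPM for treated cells (5.53 to 6.18). The log2 ratio was -0.90 over all cells, -0.94 within block 1 and -0.68 within block 2. A Nrarp read was found in 52.7% of Ctrl cells (exact 95% interval 46.2 to 59.2) but in 34.4% of the treated (84 cells, 28.5 to 40.8). That is -18.3 points (-26.7 to -9.47), with 56.8% and 39.3% in block 1 and 41.3% and 21.2% in block 2. At 5 or more reads the gap was -17.9 points in block 1 (-27.5 to -7.86) and -12.0 points in block 2, where its interval included 0 (-26.3 to 2.81). Both the summed level and the mean of log2(CPM + 1) were lower in 6 of 6 runs; 0.947% of measured genes were lower in all 6 by the mean. Summed ratios ranged over the runs from -1.65 to -0.21, and single cells reached 197.5 CPM (Ctrl) and 79.04 CPM (treated). Reads of Nrarp may be missing from its count: 2051 of its 2582 exon bases are shared with Gm38287, a gene on the opposite strand that is listed at 0 reads in all 483 cells, and how reads on shared bases were counted is not given in the sources used here. Over the 531 unshared bases the Ctrl level would be 22.2 CPM per kb, which keeps Nrarp behind Hey1 and Hes1 in order.

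The other 3 targets were sparse. Hey2 (chr10:30832359-30842801, minus strand) had reads in 21 Ctrl and 17 treated cells and stood at 4.31 and 4.09 CPM (log2 ratio -0.06), while its runs ranged from -3.03 to 2.24; the 5 highest cells carried 73.4% of the Ctrl reads. Dtx4 (chr19:12466338-12501454, minus strand) had reads in 44 Ctrl and 40 treated cells and stood at 9.10 and 11.1 CPM. Its log2 ratio was 0.26 over all cells, -0.16 within block 1 and 1.17 within block 2. Heyl (chr4:123233556-123249875, plus strand) had reads in 7 cells of each treatment, at 2.62 and 3.11 CPM. For these 3 genes the interval of the difference in share included 0 (Hey2 -6.81 to 3.09 points, Dtx4 -8.81 to 4.76, Heyl -3.39 to 3.24), so a difference of several points either way was not detectable with this number of cells.

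**Figure D2:**
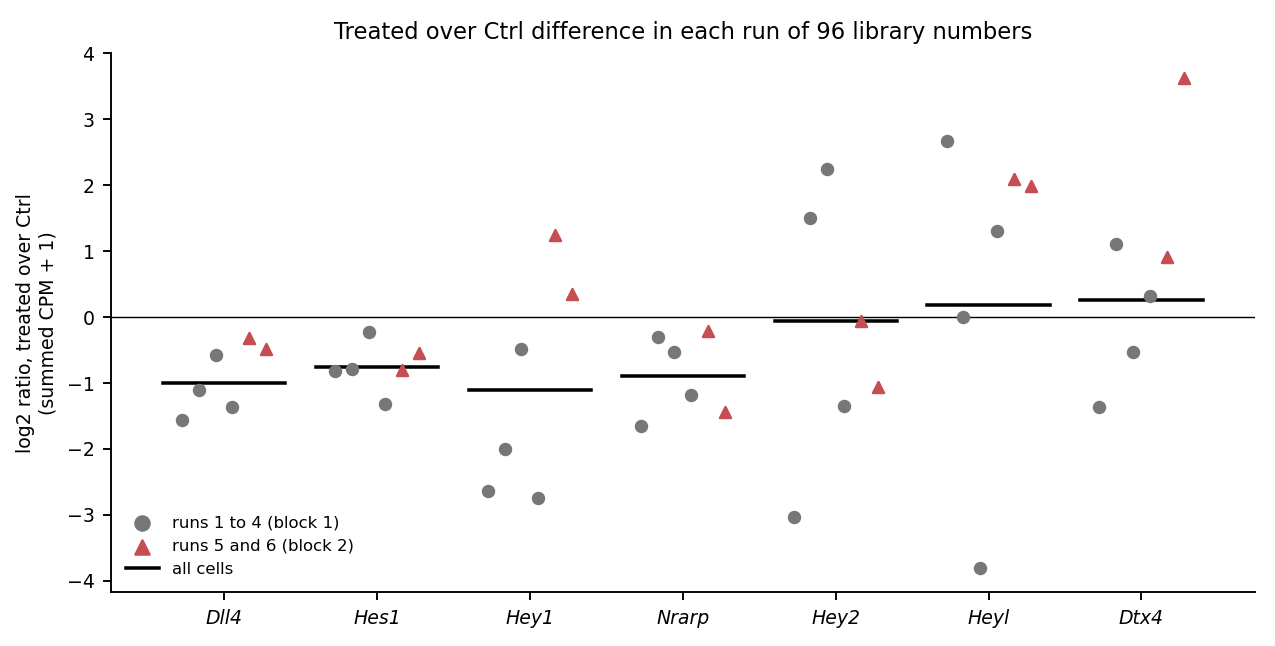
Log2 ratio, treated over Ctrl, of summed CPM + 1 in each of 6 runs of library numbers (grey circles, runs 1 to 4; red triangles, runs 5 and 6), with a black bar for all cells. Every point lies below 0 for Dll4, Hes1 and Nrarp, Hey1 splits into 4 points below 0 and 2 above, and Hey2, Heyl and Dtx4 scatter on both sides.

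By cluster, Hes1, Hey1 and Nrarp were all high in clusters 1 and 2, where Dll4 was high, but the orders over the clusters were not the same. In the hematopoietic clusters 6 and 7, Hes1 was at 0.306 and 0.647 CPM per kb, Hey1 at 2.11 and 0.12, and Nrarp at 0.794 and 0.492. Over both treatments Dll4 stood at 123.2 CPM per kb in cluster 1, 65.8 in cluster 2 and 13.9 in cluster 3, and was under 1 in clusters 4 to 7. Nrarp had the same order over clusters 1 to 3 (5.15, 3.95 and 1.45 CPM per kb). Hey1 did not with the blocks pooled: cluster 2 (64.4 CPM per kb) was at least as high as cluster 1 (60.7), and cluster 3 was at 23.9. That order depended on the block. Hey1 was at 59.5 in cluster 1 and 70.8 in cluster 2 of block 1. In block 2 it was at 64.5 and 47.7, the order of Dll4. Hes1 was at 44.96, 41.3 and 26.5 CPM per kb in clusters 1 to 3. It was also at 34.6 and 33.7 in clusters 4 and 5, where Dll4 was 0.228 and 0.186 CPM per kb. There, Hes1 was found in 17 of 22 and 12 of 13 cells, and Hey1 at 5.55 and 10.1 CPM per kb. In CPM, Hey1 was at 18.1 and 32.8 there, and at 7.59 and 9.38 without the highest cell of each cluster.

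The sparse targets were placed elsewhere. Dtx4 was highest in cluster 4 (43 CPM, 8 of 22 cells), followed by cluster 5 (19.4 CPM, 3 of 13 cells) and cluster 1 (13.2 CPM, 47 cells), and it had no read in the 33 cells of cluster 6, which allows a share of up to 9.09% at 3 counts and 10.6% by the exact interval. Heyl was highest in cluster 5 (48.3 CPM), on 3 of 13 cells. Hey2 was between 4.14 and 5.75 CPM in clusters 1, 2, 3 and 5. Its Poisson intervals were 5.40 to 6.12 in cluster 1, 3.79 to 4.51 in cluster 2, 4.33 to 5.57 in cluster 3 and 3.60 to 5.82 in cluster 5. They take reads as independent, so they do not separate clusters 1 and 2. Hey2 reads came from 16 and 11 cells there, with 62.6% and 89.8% of them in the 5 highest cells. The shares of cells with a read overlapped, at 8.74% (5.08 to 13.8) and 7.59% (3.85 to 13.2). Single cells set much of this order. Without the cell with the highest Dtx4 level, a Ctrl cell with 246 of the 299 reads, cluster 5 was at 3.76 CPM of Dtx4, below clusters 1 and 2 without theirs (11.4 and 4.71), while cluster 4 remained highest (27.1). Heyl was likewise still highest in cluster 5 (15.8 CPM). Hey2 without its highest cell was at 4.97, 2.53, 1.07 and 0.91 CPM in clusters 1, 2, 3 and 5.

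**Figure D3:**
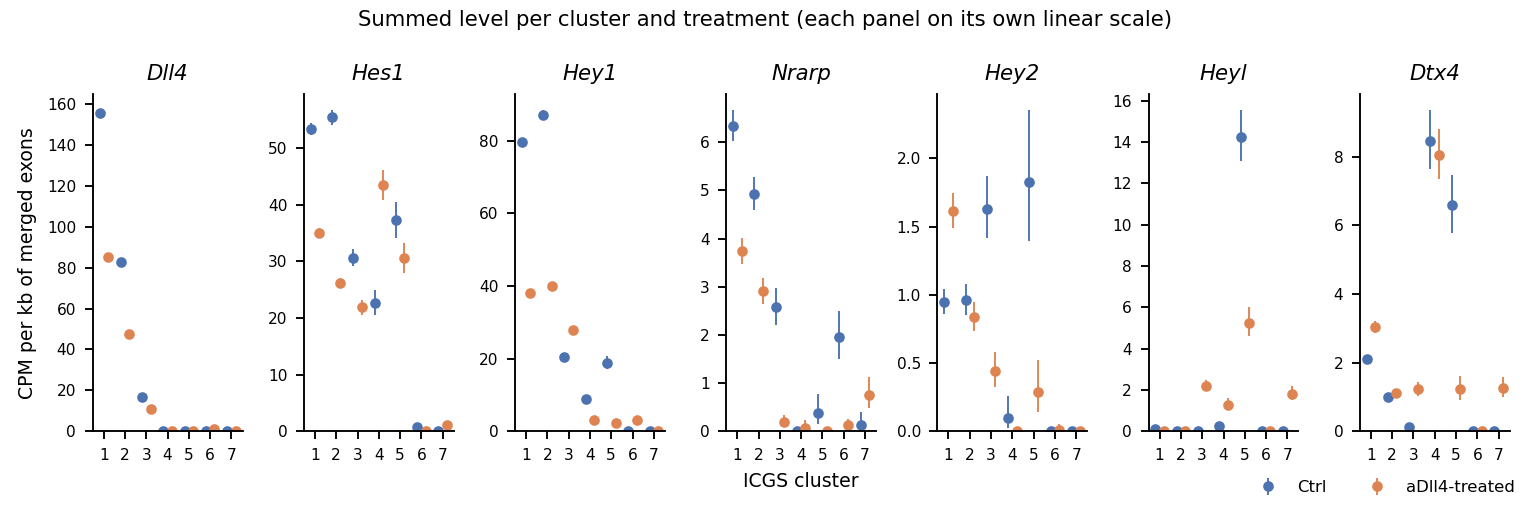
Summed level of Dll4 and each target per ICGS cluster, in CPM per kilobase of merged exons on a linear axis, for Ctrl (blue) and treated (orange) cells, with 95% Poisson intervals. Dll4 and Nrarp step down from cluster 1 to 3, Hes1 stays high in clusters 4 and 5, and Dtx4 and Heyl peak in clusters 4 and 5.

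Single reads of a gene also appeared in cells where its summed level was low, so 5 or more reads were asked for in the comparisons within cells. In clusters 6 and 7 at least 1 Dll4 read was seen in 50.9% of cells and at least 1 Hey1 read in 41.5%, at median depths of 1052305 reads against 849476 in clusters 1 to 3, while the summed levels there were 2.00 and 4.43 CPM. Hes1 and Nrarp gave 20.8% and 16.98%. With 5 or more reads the shares in clusters 6 and 7 were 1.89% for Dll4, 3.77% for Hey1, 3.77% for Hes1 and 7.55% for Nrarp.

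Within clusters 1 and 2, which carry most of the target reads, treated cells were lower for Hes1 (log2 ratios -0.60 and -1.07), Hey1 (-1.06 and -1.12), Nrarp (-0.71 and -0.69) and Dll4 (-0.87 and -0.79). In cluster 3 (31 Ctrl and 36 treated cells) Hey1 was higher in treated cells, at 66.8 and 90.9 CPM (0.44), while Nrarp was at 6.64 and 0.50 CPM with reads in 22.6% and 5.56% of cells. Cluster 1 made up 40.6% of Ctrl and 35.2% of treated cells. With both treatments weighted to the same cluster shares the ratios were -0.67 for Hes1, -0.96 for Hey1, -0.80 for Nrarp and -0.84 for Dll4. Within clusters 1 to 3 the 8 endothelial markers summed to 5789 CPM (Ctrl) and 5484 CPM (treated). Over all cells they summed to 4890 and 4211 CPM, with 7 of the 8 lower, beside a median log2 ratio of 0.01 over all measured genes. Pecam1 and Robo4 were lower in 6 of 6 runs by summed CPM (1.97% of measured genes), and by the mean of log2(CPM + 1) in 6 and 5. The part of the endothelial markers in the all-cell ratios was not tested. None of the 8 was at 0 in all cells.

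Splitting clusters by block left few cells, and Hey1 and Dll4 differed in opposite directions in some of these sets in each block. In cluster 1 of block 1 (81 Ctrl and 73 treated cells) Hey1 was at 308 CPM (Ctrl) and 66.2 CPM (treated), and Dll4 at 655 and 291 CPM. In cluster 1 of block 2 (16 and 13 cells) Hey1 was at 115.2 and 344 CPM while Dll4 was at 432 and 463 CPM (log2 ratio 0.10) and Nrarp at 12.2 and 3.71 CPM. In cluster 2 of block 2 (13 and 19 cells) Hey1 was again higher in treated cells (98.7 and 192.6 CPM) although Dll4 was lower (252 and 140.5 CPM), and Hes1 was at 171.1 and 47.5 CPM. In cluster 3 of block 1 (13 and 20 cells) Hey1 was higher in treated cells (20.1 and 73.96 CPM, log2 ratio 1.83) and Dll4 lower (48.5 and 18.4 CPM, -1.35), against the direction of Hey1 in clusters 1 and 2 of that block. Nrarp had an exception in cluster 2 of block 2, summing to 2.63 CPM over Ctrl against 10.8 CPM over treated cells, although 53.8% of the Ctrl and 42.1% of the treated cells had a read.

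Detection in the same cell as Dll4 was compared over the 395 cells of clusters 1 to 3, calling a gene seen at 5 or more reads. Dll4 was seen in 300 of them. Nrarp was seen in 49.3% of these and in 11.6% of the cells in which Dll4 was not (11 of 95), a difference of 37.8 points (28.002 to 45.3). Hes1 was seen in 79% and 52.6% (difference 26.4 points, 15.4 to 37.2) and Hey1 in 63% and 41.1% (21.9 points, 10.4 to 32.7). For Hey2 (7.00% and 3.16%), Dtx4 (12.7% and 10.5%) and Heyl (1.00% and 1.05%) the interval of the difference included 0. These shares pool clusters with unlike Dll4 levels, and a deeper cell has more chance to show both genes. Of the 6 targets, 5 were seen more often with Dll4 than without at 5 reads, which held for 74.8% of measured genes too. The same 5 were with every cell thinned to 120000 reads and 1 read asked for (73.8% of genes), so these counts are near the background. With 1 read, unthinned, 6 were in block 1 (66.2% of genes) and 4 in block 2 (87.8%). An interval wholly above 0 was found for Hes1, Hey1 and Nrarp at 5 reads, where 27.9% of genes had one, and for the same 3 after thinning (23.2%).

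With the blocks pooled, the association of Hey1 with Dll4 was not alike in the treatments. In Ctrl cells Hey1 was seen in 70.6% of cells with Dll4 and 28.9% of cells without (41.6 points, 24.1 to 55.2), and in treated cells in 54.01% and 49.1% (4.89 points, -10.2 to 19.8). In block 1 the treated shares were 48.1% with Dll4 and 55.3% without, and in block 2 they were 75.9% and 36.8%. The Ctrl shares pool blocks 1 and 2, in which Ctrl cells had Dll4 at 416.7 and 217.5 CPM and Hey1 at 257 and 85.8 CPM. The part of the blocks in the Ctrl gap was not tested. Hes1 kept a gap in both treatments (29.8 points in Ctrl and 23.7 in treated cells), as did Nrarp (46.5 and 27.9 points), although in treated cells of block 2 the Nrarp shares were 27.6% and 15.8% and their interval included 0 (-13.5 to 32.6 points). The difference between treatments in these gaps was not tested, since each treatment is 1 sample.

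**Figure D4:**
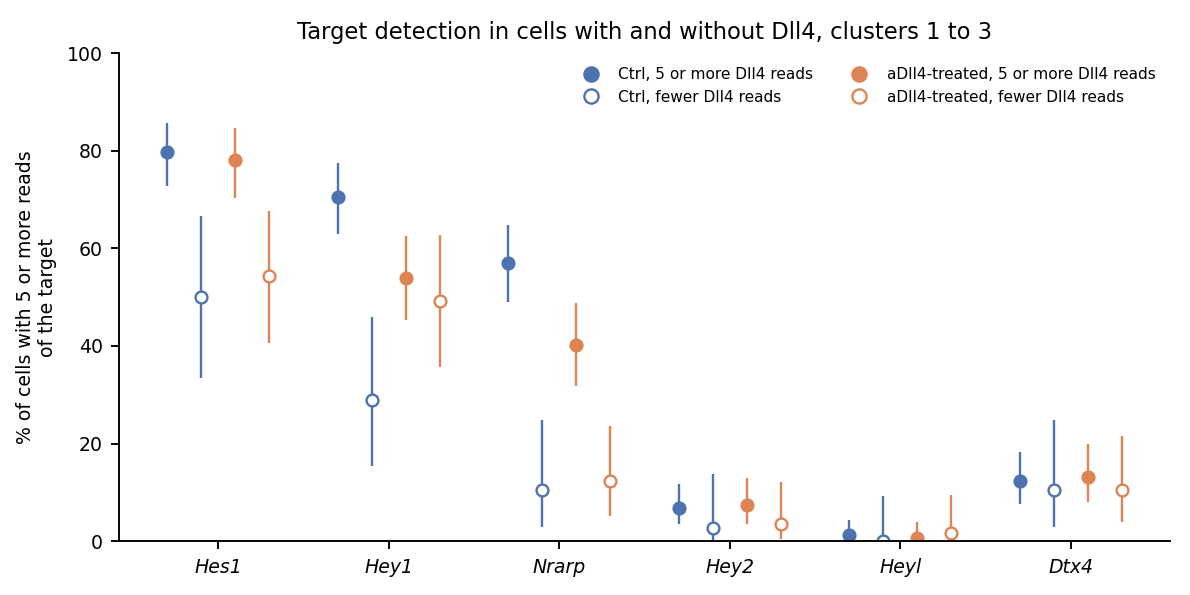
Share of cells of clusters 1 to 3 with 5 or more reads of each target, among cells with 5 or more Dll4 reads (filled) and with fewer (open), for Ctrl (blue) and treated (orange) cells, with exact 95% binomial intervals. Filled points lie above open ones for Hes1 and Nrarp in both treatments, while for Hey1 they are apart in Ctrl (70.6% and 28.9%) and overlap in treated cells (54.01% and 49.1%).

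After thinning each cell and centring log2(CPM + 1) on the mean of its cluster and treatment, Pearson's r with Dll4 over the 395 cells was 0.27 for Hey1, 0.15 for Nrarp, 0.12 for Hey2, 0.11 for Hes1, 0.01 for Heyl and -0.01 for Dtx4. These describe cells that share their library preparation, and the small values among sparse genes are no finding. Hey1 ranked at 16 among 12781 genes read in at least 10% of these cells, 5.00% of which had an r of 0.1 or more. Its r was 0.41 in Ctrl and 0.13 in treated cells, 0.25 in block 1 and 0.30 in block 2, and 0.33, 0.22 and 0.29 in clusters 1, 2 and 3. For Nrarp the r was 0.03 within cluster 1, 0.28 within cluster 2 and 0.11 within cluster 3, and within cluster 1 it was 0.11 on the cells as sequenced. For Hes1 it was 0.02, 0.21 and 0.08.

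The targets also overlapped with each other. Among cells of clusters 1 to 3 with 5 or more Hey1 reads, Hey2 was seen in 9.65% (22 cells), against 1.20% of the others (2 cells). Thus 22 of the 24 cells with Hey2 also had Hey1, which was itself seen in 57.7% of the cells of these clusters. Pairs of targets were not set against other genes, and a deeper cell has more chance to show both. Nrarp was seen in 57.9% of Ctrl cells with Hey1 and 32% of Ctrl cells without, and in 30.4% and 33.7% of treated cells. Hes1, Hey1 and Nrarp were all 3 seen in 30.3% of Ctrl cells (61 cells, 24.1 to 37.2) but in 13.4% of the treated (26 cells, 8.95 to 19.02), which is -16.9 points (-24.8 to -8.84). Cells with none of the 3 were about as frequent in both treatments, at 10.9% and 13.4% (difference 2.46 points, -4.06 to 9.04). By block, triple-positive cells made up 35.7% of Ctrl and 14.4% of treated cells in block 1 and 12.8% and 10.4% in block 2, where the difference of -2.35 points (-16.1 to 11.2) was within counting error.

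**Figure D5:**
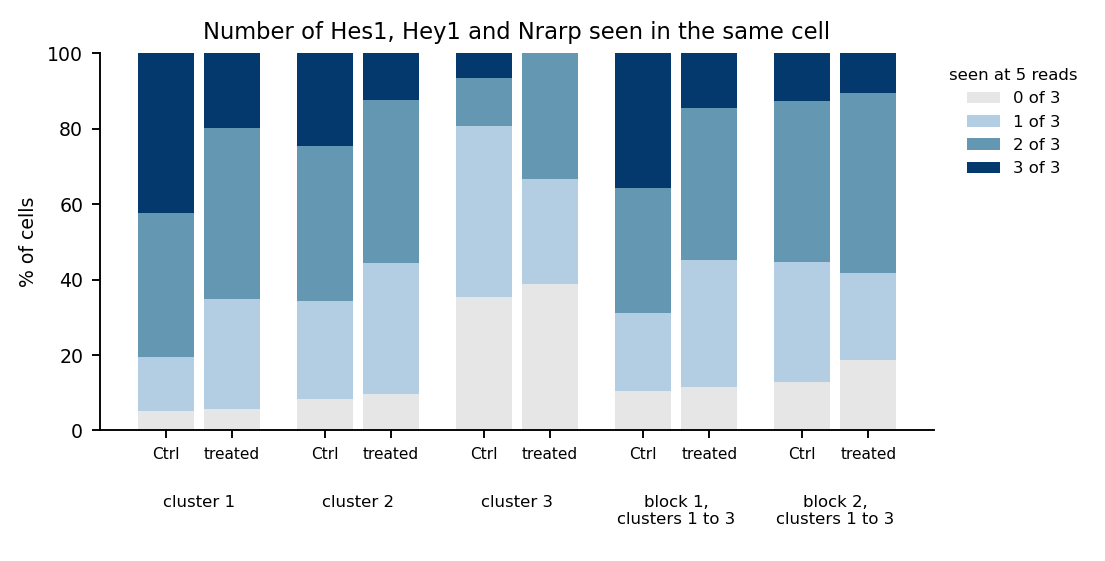
Share of cells with 0, 1, 2 or 3 of Hes1, Hey1 and Nrarp seen at 5 or more reads, as stacked bars, for Ctrl and treated cells of clusters 1, 2 and 3 and of each block within clusters 1 to 3. The darkest segment (all 3 seen) is 42.3% in Ctrl and 19.8% in treated cells of cluster 1, and 24.7% and 12.5% in cluster 2, where the interval of the difference included 0 (-24.6 to 0.62 points).

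The genes whose cell-to-cell pattern was most like each target, by the same centred r over 395 cells, differed between targets. For Hey1 they were Esm1 (0.41), an endothelial tip cell gene, the arterial ligand gene Efnb2 (0.37), the connexin gene Gja4 (0.36), the netrin receptor gene Unc5b (0.34) and the chemokine receptor gene Cxcr4 (0.32). All 5 were lower in treated cells by 0.5 or more, as were 6.48% of measured genes. Their log2 ratios, treated over Ctrl, ran from -0.65 for Efnb2 to -1.78 for Cxcr4. The r was not centred on block, which favours genes that share the block pattern of Hey1, so likeness in the block values is partly built in. In blocks 1 and 2 Cxcr4 was at -2.37 and 0.72, lower and then higher by at least 0.5, like Hey1 and 2.27% of measured genes. Esm1 was at -1.68 and 0.12, and its block 2 value fell short of 0.5. For Hes1 they were Junb (0.28), Plk2 (0.26), Litaf (0.25), Dusp5 (0.24) and Dusp1 (0.24), among which only Dusp5 was lower by 0.5 or more (-0.51). For Nrarp they were Cdc42ep3 (0.26), Sertad1 (0.25), Mapk3 (0.25), Unc5b (0.25) and Eml1 (0.25), of which Cdc42ep3 and Sertad1 were higher in treated cells (log2 ratios 0.42 and 0.23), and for Dtx4 no r was above 0.26. Unc5b and Cdc42ep3 were also among the 5 genes most like Dll4 (0.34 and 0.37).

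In the other lists of the pathway, counts are read against the 6.48% of all measured genes that were lower by 0.5 or more. At that share, 0 or 1 gene in a list of 4 to 11 is near the background. Of 12 measured genes listed as other Notch targets, 5 were lower by 0.5 or more and none higher (median -0.30): Cxcr4 (-1.78), the connexin gene Gja5 (-1.72), Gja4 (-1.10), Unc5b (-1.05) and Efnb2 (-0.65). The lists were chosen with earlier results of these data known, so this count is description only. Cxcr4, Gja4, Unc5b and Efnb2 also stood among the genes most like Hey1, with these same ratios. By summed CPM, Unc5b and Efnb2 were lower in 6 of 6 runs, but by the mean of log2(CPM + 1) in 5 and 3. Gja4 was lower by summed CPM in 5 runs, and Cxcr4 and Gja5 in 4. Gja5 had a read in 11.6% of cells, and its runs ranged from -5.47 to 2.05. Cxcr4 had a read in 18.2% of cells and was higher in treated cells in block 2 (0.72). Among targets that did not follow, Hes7 (a read in 5.18% of cells) was higher by 0.497, Myc by 0.42, Ccnd1 by 0.25, and Sox17, an arterial transcription factor, by 0.07. Ccnd1 was higher by summed CPM in 6 of 6 runs, but lower in 1 by the mean of log2(CPM + 1). The share of all measured genes higher in 6 runs was not computed. Of 4 measured ligands, Dll4 was lower by 0.5 or more, with Jag1 at -0.47 and Dll1 at 0.25, and of 4 receptors Notch1 (-0.64, with -0.82 in block 1 and 0.10 in block 2), with Notch4 at -0.46 and Notch2 at 0.18. None of 6 nuclear core genes passed 0.5 in either direction, among them Rbpj (0.09), Maml2 (-0.41) and Kdm5a (-0.31), nor did any of 11 fringe and protease genes (Adam17 -0.43, Psen2 0.36, Aph1a -0.20) or 9 inhibitor and turnover genes (Fbxw7 -0.46, Dtx3l 0.45, Numbl 0.41). Among 9 measured partners of Hes and Hey proteins, the corepressor gene Tle1 was lower (-0.73; lower in 6 of 6 runs by summed CPM and in 4 by the mean of log2), with Bhlhe40 at 0.39 and Tle2 at 0.38.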

How the data were processed

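Cells were lysed after sorting and made into Smart-seq2 and Nextera XT libraries, per the labels' protocols. The authors deposited a single table of raw read counts per Ensembl gene. GSNAP, HTSeq 0.6.0 and the mm10 build are named in the submitters' processing notes; strand settings and the annotation used are not stated there. Smart-seq2 keeps no strand and no molecular identifiers, so reads are not independent molecules. Symbols were matched for 45143 of 46078 IDs; positions and exon lengths came from GENCODE M21 on mm10.

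Counts were summed per treatment, cluster, block or run and scaled to CPM, with Poisson intervals (exact). Each share of cells carries an exact Clopper-Pearson interval and each difference of shares a Newcombe interval, all at 95%. Named genes were the 6 targets, Dll4, the 3 measured genes with the largest ratio in each pathway list plus those a result turns on, and the 5 genes most like each target. Lists fixed for other cell types gave, in CPM over all Ctrl and treated cells, hematopoietic 246 and 302, mesenchymal 389 and 324, smooth muscle 150 and 341, mesonephric and gonadal epithelium 29.6 and 45.05, erythroid 54.8 and 86.3, neural 8.15 and 4.17, and germ cell 10.5 and 9.76. The members and lists were chosen with earlier results of these data known. No cell was removed, no doublet caller was run, and no 2 cells had identical columns. Measures were tested on simulated data. Python 3.11.15, numpy 2.4.6, scipy 1.17.1 and, for an alternative scaling, edgeR 4.0.16 were used.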

Additional observations from a re-analysis of the deposited data

Results flagged for a closer look

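Hey1 differed in opposite directions in the 2 blocks of library numbers. Its log2 ratio, treated over Ctrl, was -2.03 in block 1 and 0.865 in block 2, with all 4 runs of block 1 lower and both runs of block 2 higher by summed CPM. The difference between the blocks was not tested, since a treatment is 1 sample in each. Beside it, Dll4 was -1.15 and -0.46 in the blocks, Nrarp -0.94 and -0.68, and Hes1 -0.79 and -0.66. Cluster 3 held 28.6% of Ctrl and 24.2% of treated cells in block 2, against 7.39% and 11.2% in block 1, and the Hey1 ratio within cluster 1 alone was -2.20 in block 1 and 1.57 in block 2. The part of depth, genes detected or library preparation in this split was not tested.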

How the results depend on the processing

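The log2 ratio was recomputed under 18 alternatives per gene. Hes1 stayed below 0 in all 18 (-0.85 to -0.56), as did Nrarp (-1.12 to -0.46) and Dll4 (-1.19 to -0.46). Hey1 was below 0 in 17, and was reversed in block 2 alone (0.865), and also there without the highest cell of each treatment (0.588), a setting added after seeing the data. Hey2 ranged from -0.59 to 0.35, Dtx4 from -0.16 to 1.17 and Heyl from -0.29 to 1.99. These ranges do not cover the mean of log2(CPM + 1). By that measure Hes1, treated minus Ctrl, was at -0.47 over all cells but 0.16 in block 2, where Nrarp was at -0.76 and Dll4 at -0.29. Of the 6 targets, 3 were at -0.5 or lower; this became 2 with a pseudocount of 10 CPM, which moves low genes most, and 2 in block 2 alone (Hes1 and Nrarp), and 4 without run 2, which brought Hey2 to -0.59. Measured genes at -0.5 or lower numbered 985, 1678 with no filter on low values and 443 with a filter of 20% of cells; those at 0.5 or higher numbered 892, 1594 and 341. Cluster levels without the highest cell, given with the clusters, were also added after seeing the data. No paired analysis was possible because the results come from no test and replicate numbers only name cells; the treatments were instead set side by side within runs and blocks, as description. Hey2, Heyl and Dtx4 rest on reads in 38, 14 and 84 cells, and with 1 sample per treatment no spread between animals was available.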
